A study of Mus musculus with 16 samples.

Results

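The genes Jun, Junb, Jund, Fos, Fosb, Fosl1, Fosl2, Atf3 and Batf encode transcription factors of the AP-1 and ATF group, and the accessible chromatin around them was followed in mouse bone marrow-derived macrophages. ATAC-seq, in which the Tn5 transposase cuts open DNA and adds sequencing adaptors, gave peaks in 4 deposited lists, and overlapping peaks of the 4 lists were merged into 37648 regions. A region was assigned to a gene when its midpoint was no more than 100 kb away from the transcription start site (TSS) in GRCm38. This gave 158 regions, and none lay within reach of more than 1 of the 9 genes. For each region the presence of a peak in each list and the rank of its score within that list are described.

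The macrophages came from young adult female C57BL/6J mice, and 16 libraries of 50000 cells each formed 4 groups of 4. On day 8 of culture, Veh cells received the solvent DMSO and T0 cells received 500 nM T0901317, a synthetic agonist of the liver X receptor (LXR), for 3 h. LPS cells had DMSO and T0-LPS cells had T0901317 for the same 3 h. Both then received 10 ng/mL lipopolysaccharide (LPS), a bacterial ligand of TLR4, for 2 h. It was added to the medium that already held DMSO or T0901317. The study asked how LXR activation alters accessibility at macrophage enhancers before and during the inflammatory response. Any contrast of LPS with no LPS here also contrasts culture times, and T0-LPS against T0 also contrasts the time spent with the agonist.

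Jun and Fos proteins are basic leucine zipper (bZIP) factors that bind DNA as dimers. Jun proteins form dimers with each other or with Fos proteins, Fos proteins need a Jun partner, and ATF and BATF proteins share partners with both. In macrophages, signals from Toll-like receptors reach these factors through MAP kinases within minutes, and Fos, Fosb, Junb and Atf3 are textbook immediate early genes. The AP-1 letters TGACTCA are also among the commonest motifs of macrophage enhancers, next to those of PU.1.

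The authors pooled the 4 libraries of a group into a single list, so the replicate spread cannot be seen, no p-value is given, and the depth per library is unknown. The lists held 35551 peaks for Veh, 29839 for T0, 33181 for LPS and 31085 for T0-LPS. The score is that of the peak caller and grows with depth, so a score was compared with others of its own list only, as a percentile at which 100 is the strongest peak. Values after both treatments are those of the T0-LPS list. The T0 list was the shortest, and a region of unchanged strength can rank lower in a list from which weak peaks are missing. A peak of one list without a counterpart in another had fallen under the threshold or the enhancer filter of the authors, and where peak numbers were skipped between its neighbours in that list, a peak removed by the filter may have lain there. In bulk chromatin, fewer open cells and less opening per cell cannot be told apart. All 10 macrophage markers, among them Spi1 and Csf1r, had a peak within 1 kb of the TSS in every list. None of the 5 T cell markers did, whereas 1 of 5 B cell markers (Ms4a1), 1 of 5 neutrophil markers (S100a8) and 2 of 3 dendritic cell markers (Flt3 and Zbtb46) did in every list, and 1 of 5 fibroblast markers (Col1a1) in Veh only.

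The sequences of 8 regions are shown as the plus strand of RefSeq GRCm38.p6, 200 bases around each region's midpoint. The capitals mark the AP-1 letters TGACTCA, read on either strand, and the NF-kB consensus, read on either strand. The first group holds regions with an NF-kB match whose rank was higher in LPS and T0-LPS than in Veh, and a region with a peak in LPS only. These are not all the regions with an NF-kB match. Others ranked lower in LPS than in Veh, such as that at the start of Fos, or had a Veh peak and no LPS peak.

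Fosb 43871 bp downstream, chr7:19266081-19266280: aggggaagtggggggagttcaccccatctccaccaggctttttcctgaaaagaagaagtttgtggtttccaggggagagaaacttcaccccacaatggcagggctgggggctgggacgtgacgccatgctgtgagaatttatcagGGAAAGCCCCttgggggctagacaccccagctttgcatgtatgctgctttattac
Fos 49817 bp upstream, chr12:85423974-85424173: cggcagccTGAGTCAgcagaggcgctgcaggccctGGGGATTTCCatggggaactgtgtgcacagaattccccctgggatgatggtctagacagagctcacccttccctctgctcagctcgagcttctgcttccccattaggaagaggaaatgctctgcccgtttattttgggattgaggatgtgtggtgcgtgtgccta
Junb 2217 bp downstream, chr8:84976402-84976601: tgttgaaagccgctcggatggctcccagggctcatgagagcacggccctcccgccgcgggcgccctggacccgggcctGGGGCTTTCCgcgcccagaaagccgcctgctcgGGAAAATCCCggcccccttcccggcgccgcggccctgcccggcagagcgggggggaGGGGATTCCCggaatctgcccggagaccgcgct
Atf3 62900 bp upstream, chr1:191280840-191281039: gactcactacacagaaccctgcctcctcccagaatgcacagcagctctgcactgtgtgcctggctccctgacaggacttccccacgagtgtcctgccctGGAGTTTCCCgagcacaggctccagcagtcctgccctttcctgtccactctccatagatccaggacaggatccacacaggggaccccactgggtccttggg

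The second group holds regions with AP-1 letters that lost their peak or their rank after T0, or gained rank after LPS, and the first of them also holds an NF-kB match.

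Jun 53385 bp upstream, chr4:95105508-95105707: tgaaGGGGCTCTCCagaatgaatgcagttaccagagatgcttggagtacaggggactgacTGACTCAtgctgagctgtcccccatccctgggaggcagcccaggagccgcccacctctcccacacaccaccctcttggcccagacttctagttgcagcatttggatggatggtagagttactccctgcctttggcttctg
Fos 45853 bp downstream, chr12:85519644-85519843: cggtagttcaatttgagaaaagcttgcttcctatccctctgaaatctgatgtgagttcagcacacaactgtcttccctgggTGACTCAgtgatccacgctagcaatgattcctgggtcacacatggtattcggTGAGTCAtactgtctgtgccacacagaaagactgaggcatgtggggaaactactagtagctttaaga
Atf3 1765 bp downstream, chr1:191216175-191216374: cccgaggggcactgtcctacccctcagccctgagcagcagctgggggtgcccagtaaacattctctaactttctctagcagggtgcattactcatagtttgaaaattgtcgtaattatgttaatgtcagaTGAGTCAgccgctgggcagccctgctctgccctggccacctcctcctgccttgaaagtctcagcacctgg
Fos 52876 bp upstream, chr12:85420915-85421114: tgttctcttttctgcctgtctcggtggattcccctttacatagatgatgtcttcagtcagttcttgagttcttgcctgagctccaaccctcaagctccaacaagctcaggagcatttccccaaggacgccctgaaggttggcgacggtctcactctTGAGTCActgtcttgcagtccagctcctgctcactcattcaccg

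The Fosb and Fos sequences of the first group hold 1 NF-kB match each, and the Fos sequence also holds AP-1 letters. In the Junb sequence 3 separate NF-kB matches stand within the 200 bases. The region 45853 bp downstream of Fos holds AP-1 letters at 2 places. A match of letters describes the sequence only.

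The number of regions differed widely between the genes. Atf3 had 28 regions, Jund 24, Fos 22, Junb 21, Fosb 20, Fosl1 15, Jun 11, Batf 10 and Fosl2 7, against a median of 5 and a 90th percentile of 14 over 21938 protein-coding genes. The assigned gene was the closest coding gene at 57 of the 158 regions. That was the case at 14 of the Atf3 regions, 12 of those at Fos and 10 of those at Jun, but at 1 of those at Jund and none of those at Fosl1. By their midpoints, 71 regions were intergenic, 50 intronic, 19 in exons outside UTRs and 18 in UTRs.

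**Figure D1:**
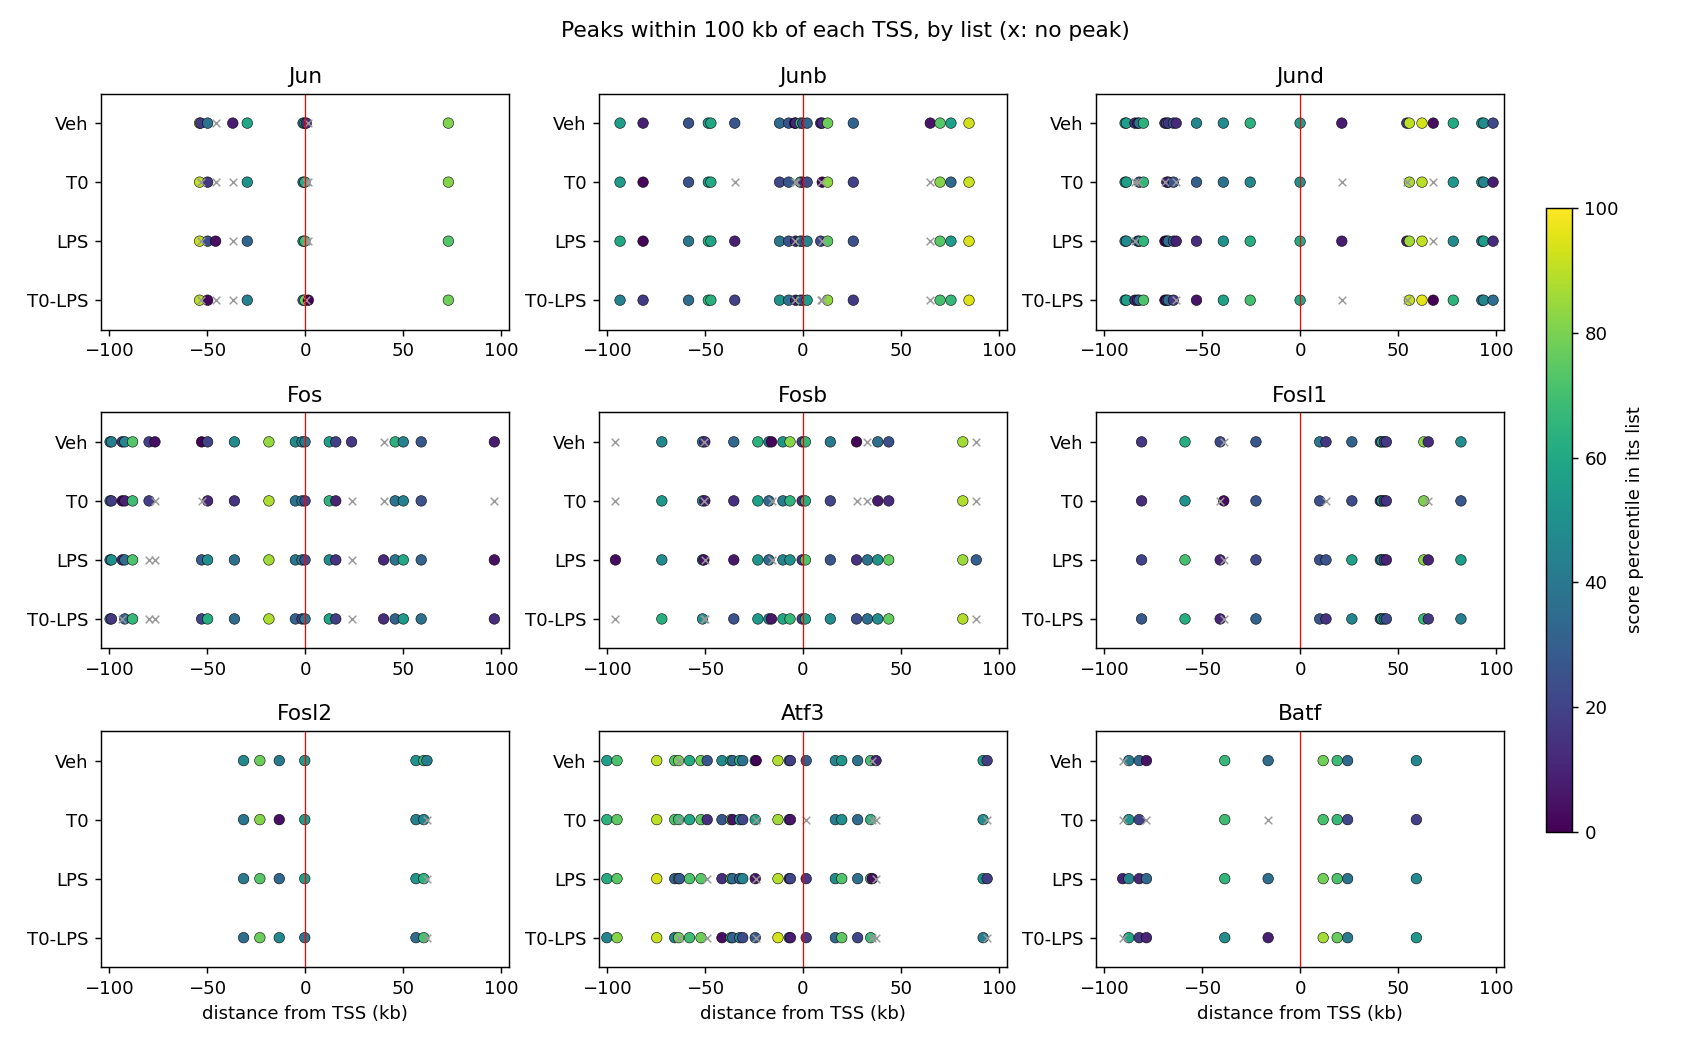
Each panel shows the regions within 100 kb of 1 gene by distance from its TSS in kb (x axis; positive is downstream, red line at the TSS) and by peak list (y axis), with circles coloured by score percentile in the list and grey crosses where the list had no peak. Circles stood in all 4 rows at 111 of the 158 regions, and the crosses lay mostly at regions that were dark, of low percentile, in the other lists.

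Of the 158 regions, 111 (70.3%) had a peak in all 4 lists, as did 70.2% of all regions. Peaks in Veh only were found at 10 regions (6.33%, against 7.73% of all) and in LPS only at 7 (4.43%, against 2.41%). Peaks in T0 only were found at 1 (0.633%, against 0.292%) and in T0-LPS only at 1 (0.633%, against 0.786%). Another 13 regions lacked a peak in T0 alone (8.23%, against 4.98% of all).

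After T0, 31 of the 147 regions with a Veh peak had no T0 peak (T0-closed), 21.1% (95% Wilson interval 15.3 to 28.4, counting error only, as for all intervals and limits here), against 18.1% of all regions. The T0-closed regions were weak. Their Veh scores ran from 59 to 311 with a median of 124, and none reached the median of the Veh list. By family, 15 of 54 regions at Jun, Junb and Jund were T0-closed, 10 of 58 at the Fos family and 6 of 35 at Atf3 and Batf. At 24 of the 31 no peak number was skipped in the T0 list, against 62.6% of all T0-closed regions. If the numbers follow the peaks as called, no removed peak could stand at those regions. When every list was shortened to the same number of peaks by score, 8 of 118 regions (6.78%) were T0-closed against 7.7% of all.

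Of the 117 regions with a T0 peak, 1 had no Veh peak (T0-opened), 0.855% against 0.729% of all regions, and it lay 39003 bp upstream of Fosl1. With lists of equal length 7 of 117 were T0-opened (5.98%, against 5.76% of all), beside the 8 that were T0-closed.

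In LPS, 17 of 147 regions with a Veh peak had none (LPS-closed), 11.6% (7.35 to 17.7), against 13% of all regions. Conversely, 9 of 139 regions with an LPS peak had none in Veh (LPS-opened), 6.47% (3.44 to 11.8), against 6.14% of all. With lists of equal length 10 of 118 were LPS-closed (8.47%, against 9.94% of all) and 13 of 121 LPS-opened (10.7%, against 9.3%). The background shares lay within the intervals of the 9 genes in both directions. The LPS-opened regions were at Fosb (4), Atf3 (2), Jun (1), Fos (1) and Batf (1), and none was at Junb, Jund, Fosl1 or Fosl2. Their LPS scores ran from 85 to 240.

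Between LPS and T0-LPS, 13 of 139 regions lost the peak (T0-closed-in-LPS), 9.35% (5.55 to 15.3), against 9.97% of all regions. Of the 130 regions with a T0-LPS peak, 4 had none in LPS (T0-opened-in-LPS), 3.08% against 3.37% of all. With lists of equal length 7 of 121 regions lost the peak (5.79%, against 6.73% of all) and 11 of 125 gained one (8.8%, against 6.09%), so which of these counts was the larger depended on the length of the lists. With T0 on both sides, 6 of 117 T0 regions had no T0-LPS peak (LPS-closed-in-T0), 5.13% against 7.7% of all. In the other direction, 19 of 130 T0-LPS regions had no T0 peak (LPS-opened-in-T0), 14.6% (9.56 to 21.7) against 11.7% of all. These comparisons share lists with those above, so the counts are not separate evidence.

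**Figure D2:**
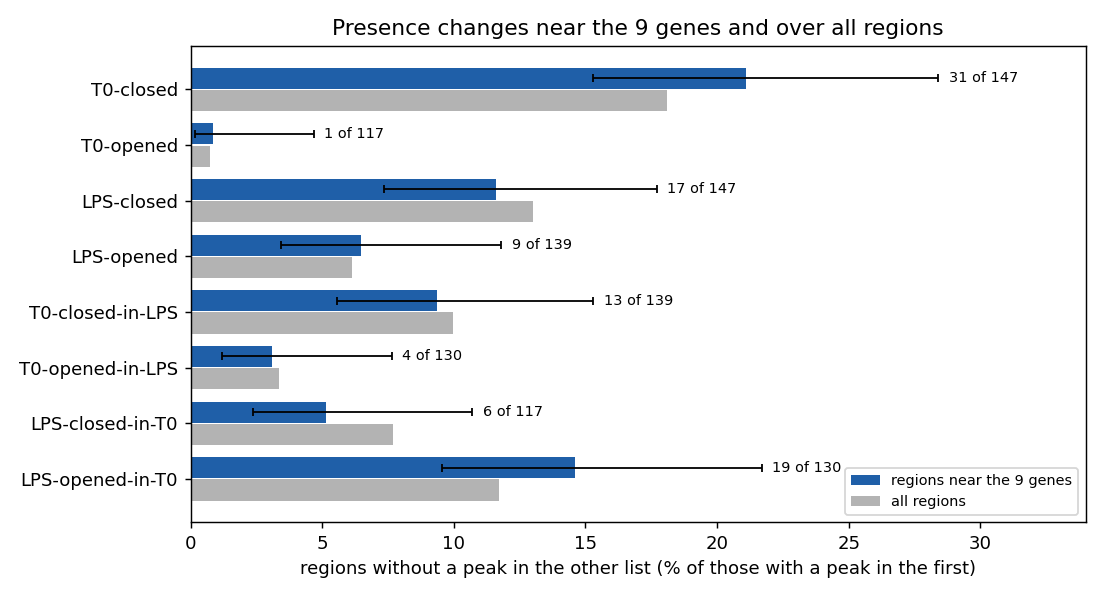
Horizontal bars give, for each of the 8 presence comparisons, the percentage of regions with a peak in the first list and none in the second, for regions near the 9 genes (blue, with 95% Wilson intervals that cover counting error only) and for all regions (grey). All 8 grey values lie inside the blue intervals, from 0.729% for T0-opened to 18.1% for T0-closed.

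Most T0-closed regions, like most regions of the set, lay away from start sites. Among the regions farther than 1 kb from every coding TSS, 26 of 99 were T0-closed (26.3%, against 21% of all such regions). Within 1 kb of a coding TSS the count was 5 of 48 (10.4%, against 11.4%). LPS-opened were 7 of 92 regions farther away (7.61%, against 7.49% of all) and 2 of 47 within 1 kb (4.26%, against 3.23%).

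Among regions with a peak in both lists, ranks were compared, and a change of 20 percentile points or more was counted. After T0, 0 of 116 rose by that much, which allows a share of up to 2.59% by a limit of 3 counts, against 0.0762% of all regions. After T0, 15 of 116 fell, 12.9% (8 to 20.2), against 10.4% of all, and the median change was -6.09 points against -5.58. Ranked only among the regions found in both lists, 3 of 116 fell (2.59%, against 2.42% of all), those 92044 and 36145 bp upstream of Fos and 13267 bp upstream of Fosl2, and 2 rose (1.72%, against 1.84%), at 51118 bp upstream of Fosb and 87438 bp upstream of Batf. Those 2 were named after their values were seen. The count thus depended on how the ranks were taken, and where a change described below passed 20 points only in the ranking over whole lists, its value among shared regions is given in parentheses.

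After LPS, 6 of 130 shared regions rose, 4.62% (2.13 to 9.7), against 3.92% of all, and 12 fell, 9.23% (5.36 to 15.4), against 9.14%. The rises were at Fos (2), Fosb (1), Fosl1 (1), Jund (1) and Batf (1). Falls were most numerous at Atf3, which held 5 of the 12 and was also the gene with the most regions (28). The 6 rises lay nearer to the start of another gene than to that of the assigned gene. Among the regions whose closest coding gene was the assigned gene, 0 of 46 rose in the ranking over whole lists. Ranked among the regions in both lists, 8 rose (6.15%, against 5.9% of all) and 9 fell (6.92%, against 6.24%). Those 8 included regions 19888 bp downstream of Atf3 (24.5 points) and 50002 bp downstream of Fos (21.8 points), whose closest coding gene was the assigned one. These regions were named after their values were seen.

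In T0-LPS relative to LPS, 4 of 126 shared regions rose, 3.17% (1.24 to 7.88), against 0.929% of all, and 6 fell, 4.76% (2.2 to 10), against 4.36%. The median change was 1.95 points at the 9 genes and -1.76 over all regions. The 4 that rose were at Atf3 (2), Fosb (1) and Jund (1). Among shared regions only, 9 rose (7.14%, against 2.11% of all) and 3 fell (2.38%, against 2.41%), so which direction held more regions also depended on the ranking. Those that rose by 20 points only in this ranking lay 32132 bp upstream of Atf3 (24.6 points), 126 bp upstream of Fos (20.1) and 6493 bp upstream of Fosb (20.0). The others lay 42884 bp downstream of Fosl1 (20.6) and 78077 bp downstream of Jund (20.9). They were named after their values were seen.

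In T0-LPS relative to T0, 19 of 111 shared regions rose, 17.1% (11.2 to 25.2), against 7.76% of all, and 6 fell, 5.41% (2.5 to 11.3), against 5.62%. The rises were spread over the families, with 10 of 45 regions at the Fos family, 6 of 38 at the Jun family and 3 of 28 at Atf3 and Batf. Ranked among the regions in both lists, 16 rose (14.4%, against 6.75% of all). Regions whose closest coding gene was the assigned one gave 5 of 43 (11.6%). Several of the 19 stand on the same chromosome stretch, so they are not independent of each other.

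**Figure D3:**
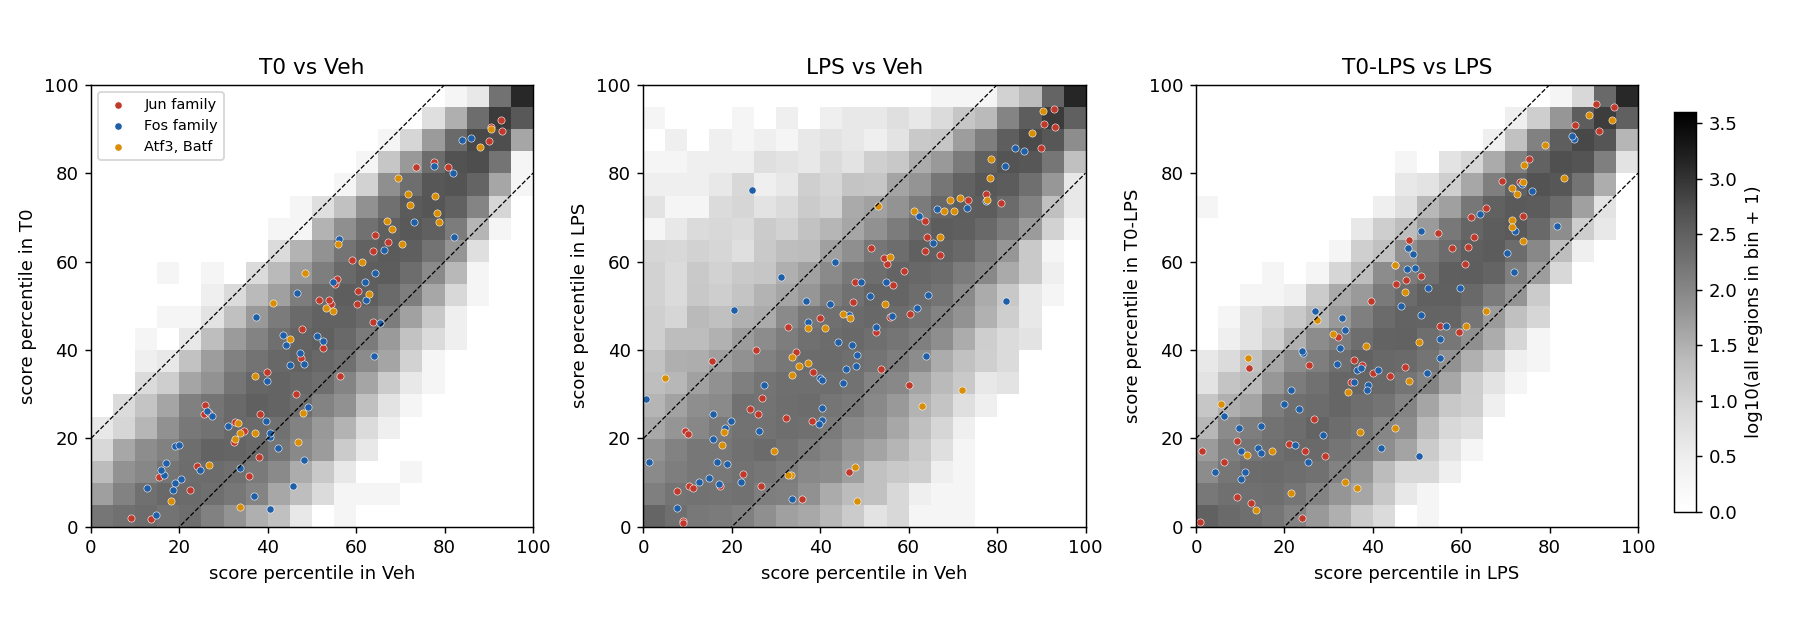
Score percentiles of regions with a peak in both lists, T0 against Veh, LPS against Veh and T0-LPS against LPS, with coloured points for the regions near the 9 genes (red, Jun family; blue, Fos family; orange, Atf3 and Batf), grey squares for the number of all regions on a log10 scale and dashed lines at a change of 20 points. In the first panel 15 of 116 points lie at or below the lower line and none above the upper one, and in the second a Fosb region stands apart at 24.6 in Veh and 76.1 in LPS.

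Jun encodes c-Jun, the classical partner of c-Fos. The region at its start (chr4:95052042-95052853, 225 bp upstream) scored 504 in Veh, 395 after T0, 488 after LPS and 544 after both, at percentiles 63.8, 62.4, 69.2 and 78.2. It stayed in the upper part of every list, with its highest rank in T0-LPS. The region 29585 bp upstream (chr4:95081614-95082000), in an intron of the antisense gene Junos and with AP-1 letters, scored 465 in Veh, 306 after T0, 211 after LPS and 249 after both, at percentiles 60.1, 50.5, 32.1 and 43. It was lowest in LPS, where it fell by 28.0 points from Veh. Farther from the gene, the region 49799 bp upstream (chr4:95101880-95102163), also with AP-1 letters, scored 281 in Veh, 135 after T0, 171 after LPS and 70 after both, at percentiles 38.1, 15.8, 23.9 and 1.9. It fell by 22.3 points from Veh to T0 (-10.6 among shared regions) and by 22.0 points from LPS to T0-LPS (-14.9 among shared regions).

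Peaks came and went at 5 weak Jun regions. The region 53385 bp upstream (chr4:95105496-95105718), shown above with its AP-1 and NF-kB letters, scored 153 in Veh, at percentile 16.5, and had no peak in T0, LPS and T0-LPS. Regions 36982 bp upstream (score 112) and 508 bp downstream (score 135) were likewise found in Veh only. The region 45732 bp upstream was found in LPS only, at score 87, and that 1566 bp downstream, in the Jun exon, in T0-LPS only, at score 52. Apart from the region at 53385 bp, peak numbers were skipped at these regions in at least 1 of the lists without a peak, so a filtered peak may stand there.

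Junb encodes JunB, which accumulates soon after LPS and can oppose c-Jun at some sites. Its start site lay in a region of modest rank (chr8:84978503-84978953, 10 bp upstream) that scored 193 in Veh, 128 after T0, 184 after LPS and 161 after both, at percentiles 24, 13.7, 26.7 and 24.4. It was lowest in T0 and alike in the other 3 lists. The region with 3 NF-kB matches, 2217 bp downstream (chr8:84976172-84976831), scored 245 in Veh, 167 after T0, 289 after LPS and 325 after both, at percentiles 32.6, 23.8, 45.3 and 55. It ranked higher with LPS than without, and T0-LPS stood 31.2 points above T0. This region was picked out after its values were seen.

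At the edge of the Junb window, the region 75588 bp downstream (chr8:84902836-84903425), in an exon of Klf1 and with an NF-kB match, scored 429 in Veh, 214 after T0, 356 after LPS and 418 after both, at percentiles 56.4, 34.2, 54.8 and 66.5. It fell by 22.2 points after T0 alone (-14.0 among shared regions) and was at its highest in T0-LPS. The T0-closed regions of Junb lay 34683, 4140 and 3616 bp upstream and 9159 and 65040 bp downstream, with Veh scores between 101 and 208. Of these, the regions 4140 bp upstream and 65040 bp downstream had no peak in LPS either. The region 9946 bp downstream was LPS-closed, at 139 in Veh, and the one 9159 bp downstream had an LPS peak of 161 that was missing in T0-LPS.

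Jund encodes JunD, a Jun protein that is broadly expressed in resting cells. The region over its start (chr8:70698373-70699401, 62 bp upstream) scored 410 in Veh, 306 after T0, 408 after LPS and 359 after both, at percentiles 54.4, 50.5, 60.9 and 59.4. The ranks spanned few points, with the lowest in T0. The region 68029 bp upstream (chr8:70630793-70631047), in an intron of Gdf15, scored 265 in Veh, 120 after T0, 99 after LPS and 125 after both, at percentiles 35.8, 11.5, 6.32 and 14.6. It fell by 24.3 points from Veh to T0 (-12.0 among shared regions) and was lower still in LPS. By contrast, the region 67281 bp upstream (chr8:70631500-70631836), in a UTR of Gdf15, scored 149 in Veh, 119 after T0, 242 after LPS and 214 after both, at percentiles 15.4, 11.3, 37.6 and 36.6. Gdf15 encodes a secreted stress cytokine, and these neighbouring regions at it had opposite orders in Veh and LPS.

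The region 52906 bp upstream of Jund (chr8:70645890-70646197) scored 343 in Veh, 196 after T0, 124 after LPS and 89 after both, at percentiles 46.4, 30.1, 12.5 and 5.36. Its rank fell by 33.9 points after LPS. The region 98370 bp downstream (chr8:70796979-70797659), in an intron of Mast3, scored 184 in Veh, 109 after T0, 121 after LPS and 210 after both, at percentiles 22.5, 8.24, 12 and 35.9. T0-LPS stood 24.0 points above LPS there. Jund had 7 T0-closed regions among its 24, at 84302, 82867, 68994 and 63266 bp upstream and 21206, 54377 and 67869 bp downstream, and their Veh scores were between 88 and 158. Those 84302 bp upstream and 67869 bp downstream were also LPS-closed and had a T0-LPS peak. Those 63266 bp upstream and 21206 and 54377 bp downstream had an LPS peak that was missing in T0-LPS.

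Fos encodes c-Fos, the classical immediate early factor whose promoter responds to serum and growth signals. The region at its start (chr12:85473475-85474054, 126 bp upstream) scored 298 in Veh, 154 after T0, 173 after LPS and 228 after both, at percentiles 40.4, 20.4, 24.2 and 39.4. Veh and T0-LPS ranked alike, and T0 (-8.7 from Veh among shared regions) and LPS lay lower. An NF-kB match starts 214 bp upstream of the RefSeq TSS in the Fos promoter. The region 49817 bp upstream (chr12:85423883-85424264), printed above with AP-1 and NF-kB letters, scored 174 in Veh, 118 after T0, 313 after LPS and 378 after both, at percentiles 20.4, 10.7, 49.1 and 61.8. It rose by 28.7 points after LPS and was highest in T0-LPS. Close by, the region 52876 bp upstream (chr12:85420852-85421176), with AP-1 letters, scored 59 in Veh, 194 after LPS and 147 after both, at percentiles 0.525, 28.8 and 20.7, and had no peak in T0. It was at the threshold in Veh and well above it in both LPS lists.

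The opposite order was seen 45853 bp downstream of Fos (chr12:85519603-85519884), where AP-1 letters stand at 2 places. This region scored 506 in Veh, 236 after T0, 247 after LPS and 189 after both, at percentiles 64, 38.6, 38.6 and 30.9. Relative to Veh it fell by 25.4 points in T0 (-18.9 among shared regions) and by the same in LPS. The region 92044 bp upstream (chr12:85381686-85382007), with AP-1 letters, scored 337 in Veh, 111 after T0, 232 after LPS and 197 after both, at percentiles 45.8, 9.22, 35.7 and 32.7. After T0 it fell by 36.6 points, the most among the shared Fos regions. The region 98854 bp upstream (chr12:85374861-85375211), close to the start of Tmed10, scored 310 in Veh, 143 after T0, 322 after LPS and 128 after both, at percentiles 42.2, 17.9, 50.5 and 15.9. It was high without T0 and low with it, both before LPS (-13.2 from Veh to T0 among shared regions) and after.

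LPS opened 1 region at Fos, 39942 bp downstream (chr12:85513676-85513989), which scored 118 after LPS and 117 after both, at percentiles 11.1 and 12.5, and had no peak in Veh and T0. T0-closed regions of Fos lay 76684 bp upstream and 23618 and 96441 bp downstream beside that 52876 bp upstream, with Veh scores between 59 and 150. The regions 79700 and 76684 bp upstream and 23618 bp downstream were LPS-closed, and that 93378 bp upstream had an LPS peak (score 118) that was missing in T0-LPS.

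Fosb encodes FosB, another early induced partner of Jun proteins. The region at its start (chr7:19310240-19310497, 317 bp upstream) scored 154 in Veh, 122 after T0, 133 after LPS and 132 after both, at percentiles 16.6, 11.8, 14.7 and 16.6. All 4 ranks were low and near each other. The strongest change of any of the 158 regions after LPS stood 43871 bp downstream (chr7:19265893-19266467), in an intron of Vasp, which encodes an actin regulator. This region, with the NF-kB match shown above, scored 198 in Veh, 125 after T0, 567 after LPS and 516 after both, at percentiles 24.6, 12.8, 76.1 and 76. It ranked high in both LPS lists and low in the other 2, and T0 before LPS moved it by -0.1 points.

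Between Fosb and Vasp, the region 33029 bp downstream (chr7:19276847-19277197), in a UTR of the phosphatase gene Ppm1n and with an NF-kB match, scored 240 after LPS and 210 after both, at percentiles 37.3 and 35.9, and had no peak in Veh and T0. It was the strongest LPS-opened region near the 9 genes. The region 38284 bp downstream (chr7:19271475-19272059), in a UTR of Vasp and 50 bp from its start, scored 271 in Veh, 103 after T0, 327 after LPS and 279 after both, at percentiles 36.8, 7.04, 51 and 48. Its rank fell by 29.7 points from Veh to T0 (-17.3 among shared regions), whereas from LPS to T0-LPS it fell by 3.0 points. The region 14070 bp downstream (chr7:19295795-19296167) scored 298 in Veh, 156 after T0, 185 after LPS and 284 after both, at percentiles 40.4, 21.1, 26.9 and 48.8, which put T0-LPS 21.9 points above LPS.

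Upstream of Fosb, the region at 6493 bp (chr7:19316232-19316857) scored 754 in Veh, 423 after T0, 327 after LPS and 421 after both, at percentiles 82.1, 65.6, 51 and 66.9. It was high in Veh and lowest in LPS, where it fell by 31.1 points. Other LPS-opened regions at Fosb lay 95548 and 50439 bp upstream and 88492 bp downstream, with LPS scores of 85, 93 and 201 and no T0-LPS peak. The T0-closed regions were at 15936 bp upstream and 27456 bp downstream. The former scored 76 in Veh and 94 after both, at percentiles 1.61 and 6.21, and had no peak in T0 and LPS, and the latter scored 71 in Veh, 133 after LPS and 156 after both, at percentiles 1.24, 14.7 and 22.9, and had no peak in T0. The region 49955 bp upstream was LPS-closed, at 135 in Veh.

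Fosl1 encodes Fra-1, which lacks the transactivation domain of c-Fos. The nearest region lay 9932 bp downstream (chr19:5457240-5457719) and scored 293 in Veh, 168 after T0, 167 after LPS and 170 after both, at percentiles 39.7, 24, 23.2 and 26.7. No list had a peak within 1 kb of the Fosl1 start. The region 26339 bp downstream (chr19:5473707-5474066), 68 bp from the start of Efemp2, scored 234 in Veh, 164 after T0, 369 after LPS and 264 after both, at percentiles 31, 22.9, 56.5 and 45.5. It rose by 25.5 points after LPS. The region 81982 bp downstream (chr19:5529367-5529692) scored 366 in Veh, 180 after T0, 359 after LPS and 246 after both, at percentiles 49.2, 27, 55.3 and 42.5. After T0 it fell by 22.2 points (-12.6 among shared regions). The T0-opened region 39003 bp upstream was found in T0 only, at score 83. T0-closed regions lay 40834 bp upstream and 13149 and 65338 bp downstream, with Veh scores of 182, 150 and 135, and all 3 had peaks in LPS and T0-LPS.

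Fosl2 encodes Fra-2, a further Fos-related partner of Jun proteins. Its start lay in a wide region (chr5:32134973-32136096, 267 bp upstream) that scored 415 in Veh, 341 after T0, 359 after LPS and 222 after both, at percentiles 54.8, 55.3, 55.3 and 38.2. The rank was level in Veh, T0 and LPS and lower in T0-LPS. The region 13267 bp upstream (chr5:32122387-32122682) scored 298 in Veh, 89 after T0, 217 after LPS and 274 after both, at percentiles 40.4, 4.06, 33.1 and 47.2. After T0 it fell by 36.3 points to near the threshold, and it stood above its Veh rank in T0-LPS. The region 62075 bp downstream (chr5:32197711-32198042) scored 311 in Veh, at percentile 42.3, and had no peak in T0, LPS and T0-LPS. It was the strongest T0-closed and LPS-closed region of the set, but 1 peak number was skipped there in each of the other lists, so a filtered peak may stand in its place.

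Atf3 encodes a factor that LPS induces and that can repress inflammatory genes. The gene record starts at a distal TSS, whose nearest region (chr1:191216157-191216392, 1765 bp downstream, with AP-1 letters) scored 225 in Veh, 142 after LPS and 133 after both, at percentiles 29.5, 17.2 and 17.1, and had no peak in T0. A second annotated start, inside the gene, had a region 52 bp away (chr1:191183044-191183741) that scored 578 in Veh, 408 after T0, 511 after LPS and 430 after both, at percentiles 70.3, 64, 71.4 and 67.8. So the inner start was open at a high rank in every list, whereas the distal one had a weaker peak nearby that was T0-closed.

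At Atf3, 5 shared regions ranked at least 20 points lower in LPS than in Veh, and all but that 6890 bp upstream (-15.0) also did so in the ranking among shared regions. The region 24231 bp upstream (chr1:191242063-191242477) scored 359 in Veh, 357 after T0, 97 after LPS and 174 after both, at percentiles 48.4, 57.5, 5.72 and 27.7. It fell by 42.7 points after LPS, the most of any of the 158, and regained 22.0 points in T0-LPS relative to LPS. The region 65309 bp upstream (chr1:191283072-191283624), named after its values were seen, scored 602 in Veh, 498 after T0, 205 after LPS and 254 after both, at percentiles 72.1, 72.8, 30.9 and 43.7. Here too LPS and T0-LPS ranked low and Veh and T0 high. The region 6890 bp upstream (chr1:191224769-191225089) scored 250 in Veh, 165 after T0, 120 after LPS and 221 after both, at percentiles 33.3, 23.4, 11.8 and 38.1. Its rank was 26.3 points higher in T0-LPS than in LPS, the widest such rise.

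Other Atf3 regions moved with T0. The region 35765 bp upstream (chr1:191253661-191253948) scored 252 in Veh, 91 after T0, 225 after LPS and 187 after both, at percentiles 33.7, 4.52, 34.4 and 30.6. It fell by 29.2 points after T0 (-16.2 among shared regions). The region 30611 bp upstream (chr1:191248486-191248814) scored 275 in Veh, 156 after T0, 286 after LPS and 153 after both, at percentiles 37.2, 21.1, 45 and 22.4. It fell by 22.6 points from LPS to T0-LPS (-19.2 among shared regions). With its NF-kB match, the region 62900 bp upstream (chr1:191280803-191281076) scored 188 after LPS, at percentile 27.4, and had no peak in Veh, T0 and T0-LPS. The region 35479 bp downstream was also found in LPS only, at score 89. T0-closed regions lay 23759 bp upstream and 37382 and 94061 bp downstream, at Veh scores of 64, 120 and 159. The first 2 were LPS-closed, as was that 48741 bp upstream (score 209), and that 94061 bp downstream was lost again between LPS and T0-LPS.

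Batf encodes a bZIP factor without a transactivation domain, best known in lymphocytes and dendritic cells. No region lay within 1 kb of its start, and the nearest (chr12:85698154-85698587, 11701 bp downstream, in a Batf intron, with an NF-kB match) scored 689 in Veh, 477 after T0, 604 after LPS and 667 after both, at percentiles 78.3, 71, 78.9 and 86.4. Its ranks were high in every list and highest in T0-LPS. The region 59259 bp downstream (chr12:85745771-85746085), with AP-1 letters, scored 346 in Veh, 148 after T0, 300 after LPS and 313 after both, at percentiles 46.8, 19.1, 47.2 and 53.2. After T0 it fell by 27.7 points (-17.5 among shared regions). The region 16360 bp upstream (chr12:85670171-85670447) scored 261 in Veh, 235 after LPS and 103 after both, at percentiles 35.1, 36.4 and 8.77, and had no peak in T0. It had similar ranks in Veh and LPS and was absent or low with T0.

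Towards Jdp2, the bZIP gene next to Batf, the region 78427 bp upstream of Batf (chr12:85608092-85608392), in a Jdp2 exon, scored 98 in Veh, 219 after LPS and 109 after both, at percentiles 4.8, 33.6 and 10.2, and had no peak in T0. It was near the threshold in Veh, rose by 28.8 points in LPS and fell by 23.4 points from LPS to T0-LPS (-18.1 among shared regions). The region 82129 bp upstream (chr12:85604401-85604679) scored 245 in Veh, 150 after T0, 119 after LPS and 130 after both, at percentiles 32.6, 19.8, 11.6 and 16.2. It fell by 21.0 points after LPS (-14.5 among shared regions). The region 90572 bp upstream was found in LPS only, at score 112.

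**Figure D4:**
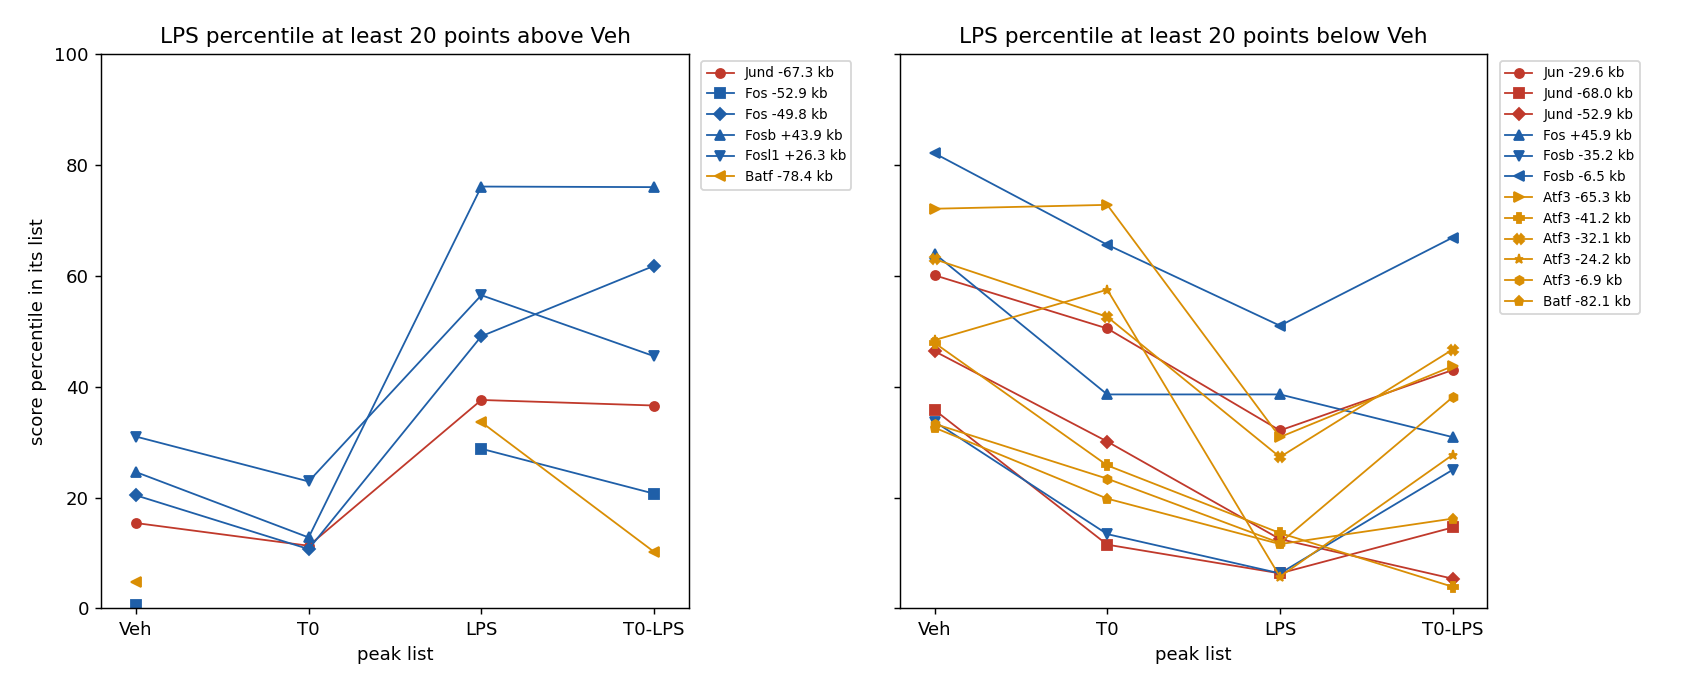
Score percentile in each of the 4 lists for the shared regions whose LPS percentile was at least 20 points above Veh (left, 6 regions) or at least 20 points below it (right, 12 regions), each line a region named by gene and distance from the TSS in kb, coloured by family (red, Jun; blue, Fos; orange, Atf3 and Batf), with a gap where a list had no peak. The Fosb region at 43871 bp reaches percentiles of 76.1 in LPS and 76.0 in T0-LPS, and 5 of the lines on the right belong to Atf3, the gene with the most regions.

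The letters of the regions were compared with those of all regions. In the 200 bp at the midpoint, AP-1 letters were found at 21 of 158 regions, 13.3% (8.86 to 19.5), against 13.4% of all regions. The CRE letters TGACGTCA, to which ATF factors bind, were found at 0 of 158, which allows a share of up to 1.9% by the limit of 3 counts, against 1.09% of all. PU.1 letters (GAGGAAGT) stood at 11 regions, 6.96% against 8.55%, and the nuclear receptor half-site AGGTCA at 18, 11.4% against 11.9%. All were read on both strands, and matches of different motifs may overlap.

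NF-kB matches were found at 14 regions, 8.86% (5.35 to 14.3), against 4.31% of all regions. They were at Jun (2), Junb (2), Jund (1), Fos (3), Fosb (3), Fosl2 (1), Atf3 (1) and Batf (1). Of the 9 LPS-opened regions 2 held an NF-kB match, as did 18.1% of all LPS-opened regions, and 0 held AP-1 letters against 14.1%. The 2 lay 33029 bp downstream of Fosb and 62900 bp upstream of Atf3. Of the 17 LPS-closed regions 3 held an NF-kB match, against 1.18% of all LPS-closed regions, so the matches stood at regions of both kinds. Of the 31 T0-closed regions 7 held AP-1 letters, against 13.5% of all T0-closed regions, and 4 held the half-site, against 11.8%. No difference between these small counts was tested.

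RefSeq promoters, from 250 bases before to 50 after the start, were found for 8 of the 9 genes in the table used, all but Fosl1. NF-kB matches stood 214 bp before the start of Fos, 188 bp before that of Fosb and, as overlapping matches, 182 and 181 bp before that of Fosl2, against 4.51% of 32851 promoters. The promoters of Jun, Junb, Jund, Atf3 and Batf held none of AP-1 (5.2% of all promoters), CRE (1.79%), the CArG box bound by SRF (1.63%) or NF-kB letters. For Jund, Fosl2 and Atf3 the RefSeq start lay 1210, 671 and 34706 bp from the start used above.

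Genes that act with these factors were counted in the same way, and are set beside all regions, of which 6.14% were LPS-opened, 18.1% T0-closed and 9.97% T0-closed-in-LPS, and 7.76% rose in T0-LPS relative to T0. Near 16 other bZIP genes, among them Jdp2, Batf3, Maff and Nfe2l2, 184 regions were found, of which 18 were also near one of the 9 genes. Of these, 34 of 165 (20.6%) were T0-closed, 15 of 157 (9.55%) LPS-opened and 15 of 157 (9.55%) T0-closed-in-LPS, and 15 of 126 (11.9%) rose in T0-LPS relative to T0. Near 20 genes for the MAP kinases upstream, their phosphatases and the Fos regulators Elk1 and Srf, 187 regions were found. There 34 of 170 (20%) were T0-closed, 12 of 159 (7.55%) LPS-opened and 18 of 159 (11.3%) T0-closed-in-LPS, and 14 of 125 (11.2%) rose in T0-LPS relative to T0. After T0, 16 of 131 shared regions (12.2%) fell in the bZIP list and 8 of 136 (5.88%) in the MAP kinase list, beside 10.4% of all regions and 12.9% at the 9 genes, and the differences were not tested.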

How the data were processed

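The deposited score is the value the authors' peak caller gave each peak. The authors trimmed adaptors with cutadapt, aligned reads with Bowtie2, removed duplicates with SAMtools, called peaks with MACS2 on the 4 libraries of a group together and kept those at macrophage enhancers with bedtools. The labels name build mm10 and no header states the scale of the score, which looks like a transformed q-value. The peaks of all 21 main chromosomes lay within GRCm38 lengths.

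Peaks sharing at least 1 bp were merged, percentiles were ranks among the peaks of a list, and a region took its strongest peak. TSSs came from GENCODE vM21 and sequences from RefSeq GRCm38.p6. Python 3.11.15, pandas 2.3.3, numpy 2.4.6, scipy 1.17.1, pysam 0.24.0 and matplotlib 3.10.9 were used. The steps were tested on simulated data. Named regions were those nearest each TSS, those whose presence differed between Veh and T0, Veh and LPS or LPS and T0-LPS, and, per gene, those with the widest rank change of at least 20 points, with exceptions named. The genes, lists and rules were chosen with earlier results of these data known. Alternatives changed the overlap, window, TSS, list length, score cut, ranking and motif window.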

Additional observations from a re-analysis of the deposited data

How the results depend on the processing

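Of 101 shares and counts recomputed under other settings, 79 stayed within the counting interval or within 1.5 times the count and 22 moved. Of 68 rank changes of single regions, all kept at least 20 points with summed scores and 46 did when ranked among regions in both lists, where 12 of the 15 falls after T0 were lost. With peaks at or above the median score only, all 8 presence shares were 0 (of 47 to 53 regions), against 0.0875% to 1.49% of all regions. No called region near the 9 genes had reached the median score of its list in any of the 8 comparisons. With lists of equal length, T0-closed was 6.78% (8 regions against 31, all 7.7%), T0-opened 5.98% (7 against 1, all 5.76%) and T0-opened-in-LPS 8.8% (11 against 4, all 6.09%), and T0-closed-in-LPS had 7 regions against 13 and LPS-closed 10 against 17. At 50% reciprocal overlap, T0-opened was 5.13% (6, all 4.78%) and LPS-closed-in-T0 11.1% (13 against 6, all 10.6%). In a window of 50 kb, 88 regions remained and T0-closed-in-LPS was 5.26% (4, all 9.97%). Falls after T0 were 2.59% (3 against 15, all 2.42%) when ranked among regions in both lists. In 400 bp, NF-kB matches were at 14.6% (all 7.27%) and half-sites at 23.4% (all 21.6%). A setting chosen after seeing the data kept only regions whose closest coding gene was the assigned one. It gave 0 of 44 for T0-opened (all 0.729%), 2.08% (1 of 48, all 9.97%) for T0-closed-in-LPS and 2.27% (1 of 44, all 7.7%) for LPS-closed-in-T0. For rises after LPS, ranked over whole lists, it gave 0 of 46 (all 3.92%). For all of these the cause was not tested, beyond the smaller number of regions in the smaller windows. No paired analysis was possible because each list pools the 4 libraries of a group, and leaving out a library was not possible for the same reason.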

Other observations

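Among the other bZIP genes, Maff, a small Maf protein without a transactivation domain, had 12 regions, of which 5 ranked at least 20 points lower in T0 than in Veh and 3 were T0-closed. Nfe2l2, which encodes the oxidative stress factor NRF2, had 25 regions, of which 3 were LPS-opened, 4 ranked at least 20 points lower in LPS than in Veh and 1 ranked at least 20 points higher. Atf5 had 18 regions with 3 LPS-opened and 4 LPS-closed. Among the kinases, Map2k6, which activates p38, had 12 regions, of which 6 were T0-closed and 5 LPS-closed. Mapkapk2, a p38 target kinase that stabilises cytokine transcripts, had 21 regions, of which 4 ranked at least 20 points higher in T0-LPS than in T0. These genes were picked from the lists after their values were seen, and the counts are small. Of all shared regions, 10.4% fell by 20 points or more after T0, and 9.14% fell and 3.92% rose after LPS. In T0-LPS relative to T0, 7.76% of all shared regions rose by that much. Over the whole list of other bZIP genes 20.6% of regions were T0-closed, 13.9% LPS-closed and 9.55% LPS-opened, and over the kinase list 20%, 13.5% and 7.55%, beside 18.1%, 13% and 6.14% of all regions.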
